A study of Mus musculus with 6 samples.

Results

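The genes described here are 10 components and targets of transforming growth factor beta (TGF-beta) and bone morphogenetic protein (BMP) signalling, taken by name from the 21936 genes of the deposited mouse expression table. They are the ligand genes Tgfb1 and Tgfb2, the matrix genes Ltbp2 and Tgfbi, the feedback inhibitor genes Smad6, Smad7 and Pmepa1, and the inhibitor of DNA binding genes Id1, Id2 and Id3. All 10 were found, and all 10 passed the filter on low counts that left 11809 genes for testing. Polyadenylated RNA was read in 6 libraries of PAM212, which the labels call a mouse keratinocyte line, grown in serum-supplemented DMEM. The overexpression group (3 libraries, titled miR28) came from cells infected with a lentivirus that carried the mouse gene of miR-28-3p, and the control group (3 libraries, titled NC) from PAM212 cells whose treatment label reads as not treated. The sources used here do not say whether the control cells carried an empty virus, or whether the infected cells were 1 clone or a pool. Nor do the labels say that the libraries of a group came from separate cultures, so the p-values measure the spread between these libraries, which may be technical.

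TGF-beta and BMP ligands are secreted dimers that bring together type I and type II receptor kinases at the cell surface. The activated type I receptor phosphorylates Smad proteins, Smad2 and Smad3 mainly below TGF-beta and activin, Smad1, Smad5 and Smad9 mainly below BMPs, and these enter the nucleus with Smad4 to regulate target genes. In the epidermis TGF-beta is best known for holding back keratinocyte division, and the Id genes, which are classical BMP targets, for holding back differentiation. Smad6, Smad7 and Pmepa1 are themselves targets and close negative feedback loops.

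Of the 10 genes, 7 fell with miR-28-3p overexpression, 0 rose and 3 were not called. The fall was greatest in Id2 and Smad6, followed by Id1, and smallest in Id3 and Tgfb1. The calls are those of edgeR's quasi-likelihood test with a Benjamini-Hochberg adjusted p under 0.05 over all genes tested, and they are read against a transcriptome in which 43.9% of tested genes were called lower (5184), 42.1% higher (4975) and 86.0% either way. With upper quartile scaling the split of all calls was 6288 lower and 3961 higher, and the median of all genes -0.26. The median log2 fold change (overexpression over control) was -0.76 over the 10 genes and -0.03 over all tested genes. None of the 10 was higher at an unadjusted p under 0.05 either (0 genes), and DESeq2 and limma on FPKM also called 0 higher. In CPM, every overexpression library lay below every control library in 7 of the 10 and above in 1, against 43.8% and 42.2% of all tested genes. Against a minimum of 1.5-fold, 5 of the 10 were called lower and 0 higher, where 27.0% and 23.4% of all tested genes were. The authors' deposited table, which names its groups only A and B, gave the same call for all 10, with 7 lower in B, and its log2 ratios of B over A were within 0.04 of the edgeR values.

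**Figure D1:**
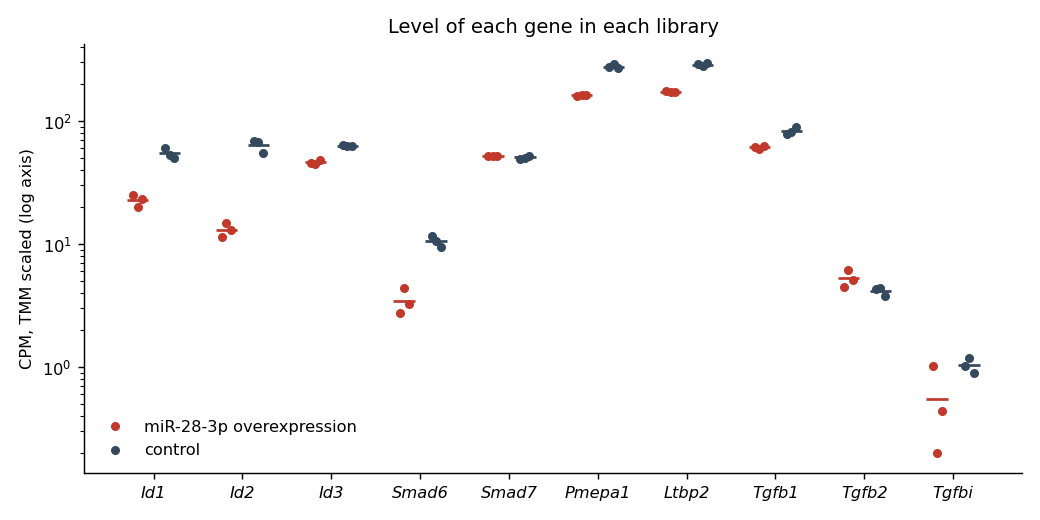
CPM, the count scaled by library total and TMM (log axis), of each of the 10 genes in the 3 overexpression libraries (red, left of each pair) and the 3 control libraries (dark, right), with the group mean as a bar. The red points of Id1, Id2, Id3, Smad6, Pmepa1, Ltbp2 and Tgfb1 all lie below the dark ones, and those of Smad7 and Tgfbi overlap them.

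Total counts ranged from 14309898 to 16383374 per library. The libraries of the groups differed in other ways too. The 25 ribosomal protein genes listed summed to between 18269 and 18558 CPM in the overexpression libraries and between 37339.6 and 38301 CPM in the controls. Averaged over counted reads, the length of the gene they fell in was 6021 to 6050 bases with overexpression and 5091 to 5119 bases in the controls. Values with the trend on gene length removed are given below, and the part of the ribosomal genes in the results was not tested. Of 10 keratinocyte marker genes 7 were tested, of which 3 rose and 4 fell, with a median log2 fold change of -0.54. Krt14, Sfn and Itga6 rose, Itga6 to 329 CPM with overexpression, against 139 CPM in the controls. Perp fell to 152 CPM, against 220.5 CPM in the controls, as did the scarce Trp63, Dsg3 and Cdh3, and Krt5 and Dsc3 were listed at 0 in all 6 libraries. The 10 summed to between 604 and 612 CPM with overexpression and between 426 and 430.3 CPM in the controls. The series' design line names melanocytes, and the 8 melanocyte markers summed to 7.33 to 8.22 CPM with overexpression and 8.05 to 9.78 CPM in the controls. Mitf, most of that sum, and Pmel fell, and Tyr and Kit were at 0 in all libraries. Tyrp1 had 40 counts with overexpression and 0 in the controls, and Dct 31 and 0, with counts in each of the 3 overexpression libraries. The 7 fibroblast markers summed to between 1541 and 1544 CPM with overexpression and between 1440.4 and 1514 CPM in the controls, nearly all of it Vim, with Lum at 0. Of the 3 fibroblast markers tested Vim and Twist1 rose, and Pdgfra fell 2.75-fold, to 16.4 CPM with overexpression, against 44.9 CPM in the controls. The part of these marker genes in the results was not tested. In bulk RNA, fewer cells that express a gene and less RNA per cell cannot be told apart.

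The overexpressed microRNA is shown because its seed can be searched in the 10 genes. Its mature sequence in RefSeq (GRCm38.p6, mmu-miR-28a-3p, chromosome 16, 24827908 to 24827929, plus strand) is given with the seed, bases 2 to 8, in capitals.
miR-28-3p: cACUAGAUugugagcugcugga
The site that pairs with this seed, ATCTAGT, was absent from the longest annotated 3' UTR of all 10 genes (GENCODE M21), and it was present in 757 (6.49%) of the 11656 tested genes with a 3' UTR of at least 50 bases. A shorter match, to bases 2 to 7, occurred in 1 of the 10 genes, Tgfb2, which was not called. The UTRs searched ran from 135 bases in Tgfb1 to 3364 bases in Pmepa1. The site for the other strand of the same precursor, miR-28-5p, occurred once among the 10 genes, in Ltbp2 (chromosome 12, 84783777 to 84783783, minus strand), and in 15.8% of the tested genes; it is printed with its flanks, the 7 matching bases in capitals. The shorter match to bases 2 to 7 of miR-28-5p also occurred in Smad7, which was not called, and in Pmepa1, which fell.
Ltbp2 3' UTR: gtttggggagtAGCTCCTgtcacctctca
All these matches are descriptions of letters in these windows, and levels of mature miR-28 were not analysed here.

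Among the ligands, Tgfb1 fell and Tgfb2 was not called. Tgfb1 (ENSMUSG00000002603, chromosome 7, 25687002 to 25705077, plus strand of GRCm38), the most widely expressed TGF-beta isoform, had 61.2, 59.7 and 62.7 CPM in the overexpression libraries and 78.0, 81.5 and 89.6 CPM in the control libraries. Every overexpression library lay below every control library. Its log2 fold change was -0.44 ± 0.05 (standard error, SE, from the test; n = 3 against 3, edgeR adjusted p = 9.85e-12), which was not past 1.5-fold (adjusted p = 1.00 against that minimum). Tgfb2 (ENSMUSG00000039239, chromosome 1, 186622792 to 186705989, minus strand), an isoform with its own essential roles in development, was scarce. It had 4.47, 6.14 and 5.12 CPM with overexpression and 4.27, 4.42 and 3.81 CPM in the controls, from 236 and 195 counts in all. In CPM all 3 overexpression libraries stood above the controls, replicate 1 only just. In deposited FPKM the groups overlapped, with 0.748, 1.03 and 0.854 in the overexpression libraries and 0.763, 0.787 and 0.678 in the control libraries. Its log2 fold change of 0.33 (95% interval -0.03 to 0.70, edgeR adjusted p = 0.0824) became a call of 0.44 without overexpression replicate 1 (adjusted p = 0.0359). Per length, Tgfb1 far exceeded Tgfb2 in both groups, at 11.7 ± 0.277 against 0.876 ± 0.140 FPKM with overexpression and 17.0 ± 1.20 against 0.743 ± 0.0570 FPKM in the controls (mean ± SD, n = 3).

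Of the matrix genes Ltbp2 fell and Tgfbi was not called, and they differed widely in level. Ltbp2 (ENSMUSG00000002020, chromosome 12, 84783212 to 84876532, minus strand), a microfibril protein of the latent TGF-beta binding family, had 177, 172 and 171 CPM with overexpression and 289, 281 and 294 CPM in the controls. The libraries within each group lay close together and the groups were far apart. The log2 fold change was -0.74 ± 0.03 (SE, edgeR adjusted p = 8.69e-32), a 1.66-fold fall. Tgfbi (ENSMUSG00000035493, chromosome 13, 56609523 to 56639562, plus strand), a secreted adhesion protein named for its induction by TGF-beta, was near the floor. Its counts were 14, 3 and 7 in the overexpression libraries and 16, 18 and 14 in the control libraries. Overexpression replicate 1 reached the lowest control count while the other two lay below, so the groups overlapped in part. The log2 fold change of -0.92 had a 95% interval from -1.85 to 0.00 (edgeR adjusted p = 0.0588), and it was called without overexpression replicate 1 (-1.64, adjusted p = 0.00872) but stood at -0.52 without replicate 2 (adjusted p = 0.318).

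Of the 3 feedback inhibitors Smad6 and Pmepa1 fell and Smad7 was not called. Smad6 (ENSMUSG00000036867, chromosome 9, 63953076 to 64022059, minus strand), an inhibitory Smad that acts mainly on BMP receptors, had 2.74, 4.36 and 3.28 CPM with overexpression and 11.7, 10.5 and 9.53 CPM in the controls. All overexpression libraries lay well below the lowest control library. It fell 3.06-fold, with a log2 fold change of -1.61 ± 0.16 (SE, edgeR adjusted p = 1.08e-13). Smad7 (ENSMUSG00000025880, chromosome 18, 75367529 to 75395935, plus strand), which blocks TGF-beta and BMP receptors alike, had 52.1, 51.6 and 51.9 CPM with overexpression and 49.5, 50.4 and 52.2 CPM in the controls. The groups overlapped, and the log2 fold change of 0.03 had a 95% interval from -0.08 to 0.14 (edgeR adjusted p = 0.585). With upper quartile scaling, which shifted the median of all genes to -0.26, Smad7 stood at -0.20 and was called lower (adjusted p = 0.00111). Pmepa1 (ENSMUSG00000038400, chromosome 2, 173224458 to 173276533, minus strand), a membrane protein that keeps Smad2 and Smad3 from the receptor, had 159.9, 163 and 162 CPM with overexpression and 274, 289 and 268 CPM in the controls. This was a 1.71-fold fall without overlap, with a log2 fold change of -0.78 ± 0.03 (SE, edgeR adjusted p = 5.21e-32).

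All 3 Id genes fell, each by a different amount. Their products are helix-loop-helix proteins without a basic region that bind E proteins and keep them off DNA. Id2 (ENSMUSG00000020644, chromosome 12, 25093799 to 25097140, minus strand) had 11.5, 14.8 and 13.0 CPM with overexpression and 68.5, 68.1 and 55.4 CPM in the controls. That is 4.89-fold lower, at a log2 fold change of -2.29 ± 0.08 (SE, edgeR adjusted p = 1.95e-27), and 6.74% of all tested genes had a lower value. Id1 (ENSMUSG00000042745, chromosome 2, 152736251 to 152737410, plus strand) had 24.9, 19.9 and 23.1 CPM with overexpression and 60.2, 53.2 and 50.4 CPM in the controls, again with a wide gap between the groups. Its log2 fold change was -1.28 ± 0.07 (SE, edgeR adjusted p = 9.97e-24). Id3 (ENSMUSG00000007872, chromosome 4, 136143497 to 136145755, plus strand) had 45.5, 44.6 and 48.3 CPM with overexpression and 63.8, 62.2 and 62.3 CPM in the controls. The groups did not overlap, but the fall was only 1.36-fold (log2 fold change -0.44 ± 0.06, SE, edgeR adjusted p = 1.09e-10). Id3 was called lower, yet not past 1.5-fold (adjusted p = 1.00 against that minimum).

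The Id genes are short, with deposited lengths of 1160 bases for Id1, 1791 for Id3 and 2438 for Id2. Tested genes within 20% of the length of Id1 had a median log2 fold change of -0.66 (382 genes), those near Id3 -0.55 (1035 genes) and those near Id2 -0.44 (1706 genes). With the trend of log2 fold change on gene length removed, Id2 stood at -1.88 (edgeR adjusted p = 4.56e-24) and Id1 at -0.60 (adjusted p = 7.68e-11), both still called lower. Id3 stood at 0.10 and was no longer called (adjusted p = 0.0933). Smad6, of 3205 bases, also moved toward 0, to -1.36, and was still called lower. Ltbp2, with 8184 bases, moved the other way to -1.10, and the 2063 tested genes near its length had a median of 0.31. Pmepa1 at -0.82 and Tgfb1 at -0.49 were still called lower, and Tgfbi at -0.79, Tgfb2 at 0.21 and Smad7 at 0.03 were not called.

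**Figure D2:**
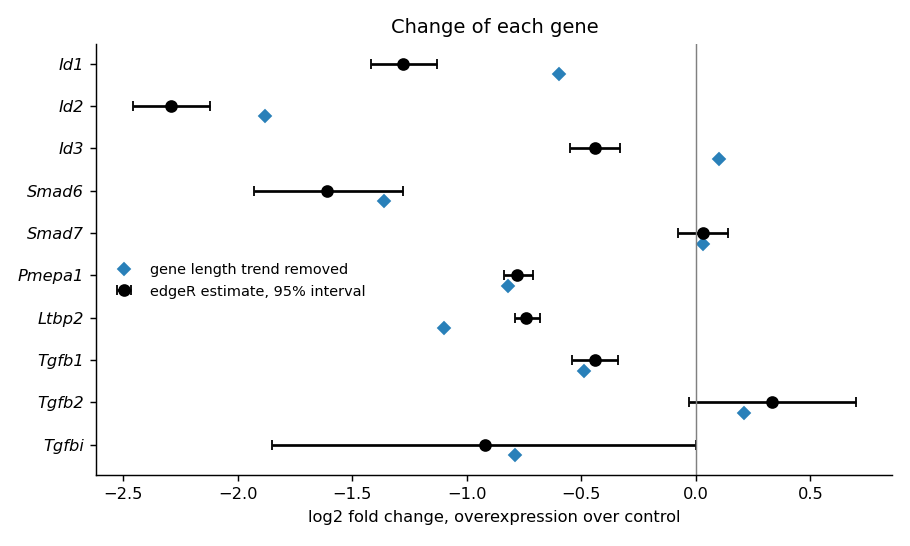
Log2 fold change of each gene, overexpression over control, with its 95% interval from the edgeR test (black, n = 3 against 3 libraries), and the value after the trend on gene length was removed (blue diamonds). Id2 lies farthest to the left at -2.29, Smad7 sits at 0.03, and the diamond of Id3 lies at 0.10.

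Ratios between related genes within a library do not depend on how libraries are scaled. Neither these ratios nor the shares below had the trend on gene length removed, and the genes compared differ in length. Both were taken from deposited FPKM, counts scaled by gene length and library total. Id2 stood to Id1 as 0.219, 0.354 and 0.269 in the overexpression libraries and as 0.541, 0.610 and 0.523 in the control libraries, lower in every overexpression library than in any control library. Id1 stood to Id3 as 0.844, 0.687 and 0.737 with overexpression and as 1.46, 1.32 and 1.25 in the controls. Id3 was thus the most abundant of the 3 per length in each overexpression library and Id1 in each control library. Of the summed FPKM of the 3 Id genes, 49.0 ± 2.11 with overexpression and 112 ± 7.78 in the controls (SD, n = 3), Id2 made up 10.7 ± 1.78% with overexpression and 24.2 ± 1.62% in the controls. Id3 made up 50.9 ± 1.42% of that sum with overexpression and 32.4 ± 1.85% in the controls.

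The ratio of Smad6 to Smad7 was 0.0742, 0.119 and 0.0892 with overexpression and 0.335, 0.294 and 0.257 in the controls. Tgfb2 to Tgfb1 gave 0.0636, 0.0896 and 0.0711 with overexpression and 0.0477, 0.0472 and 0.0370 in the controls. Ltbp2 to Tgfb1 averaged 1.74 ± 0.0514 with overexpression and 2.14 ± 0.133 in the controls (SD, n = 3). In all 6 ratios computed the groups did not overlap, each with a two-sided exact permutation p = 0.1, which is the smallest that 3 against 3 can give, and 0.1 after adjustment over the 6.

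**Figure D3:**
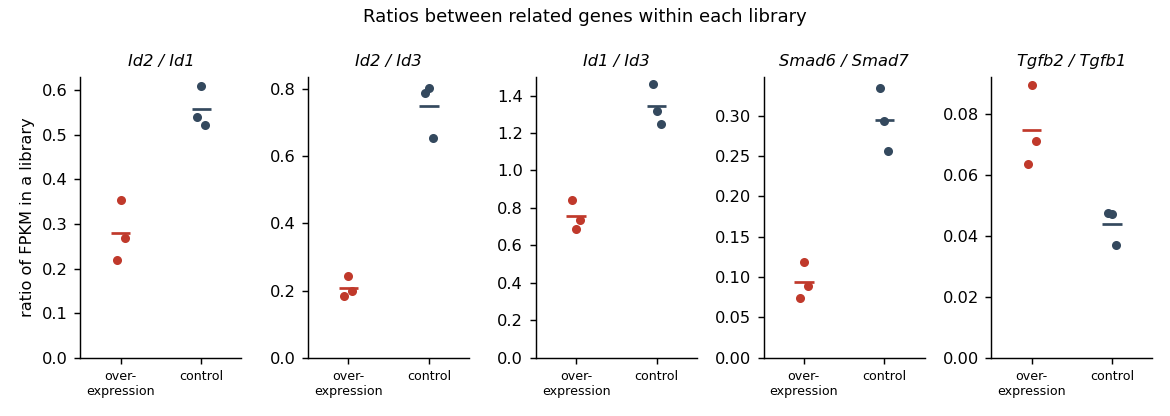
Ratio of deposited FPKM between related genes within each library, for the 3 overexpression libraries (red, left) and the 3 control libraries (dark, right), with the group mean as a bar and each axis from 0. The red points lie below the dark ones for Id2 to Id1, Id2 to Id3, Id1 to Id3 and Smad6 to Smad7, and above them for Tgfb2 to Tgfb1.

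The order of the levels per length changed mainly through the Id genes. In the overexpression libraries Pmepa1 was highest at 31.8 ± 0.323 FPKM, followed by Id3 at 24.9 ± 1.01, Ltbp2 at 20.5 ± 0.371 and Id1 at 18.9 ± 2.12 FPKM (SD, n = 3). In the control libraries Pmepa1 stood at 58.2 ± 2.23 FPKM, Id1 at 48.6 ± 4.61, Ltbp2 at 36.3 ± 0.874 and Id3 at 36.2 ± 0.600 FPKM (SD, n = 3). Neighbours that did not differ beyond their spread were Ltbp2 and Id1, and Smad6 and Tgfb2, with overexpression, and Ltbp2 and Id3 in the controls. Id2 came next after Smad7 (11.1 ± 0.0542 FPKM) with overexpression, at 5.20 ± 0.657 FPKM, and stood above Tgfb1 and Smad7 in the controls, at 27.1 ± 3.18 FPKM. The last places were held in both groups by Smad6, Tgfb2 and Tgfbi, at or below 1.04 FPKM with overexpression and 3.41 FPKM in the controls. The median coefficient of variation of the 10 genes between replicates was 7.70% with overexpression and 7.40% in the controls, against 4.88% and 4.96% over all tested genes. With overexpression the values ran from 0.437% in Smad7 to 75.7% in Tgfbi, and the scarce Tgfbi, Smad6 and Tgfb2 had the highest.

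Promoter sequence is shown for 3 of the genes called lower, Smad6, Id2 and Id3. Smad complexes are known to bind GTCTAGAC, the related CAGAC and the GC-rich GGCGCC. Whether Smads took part in these falls was not tested. RefSeq promoter windows (GRCm38.p6, 250 bases before to 50 after the start) were found for 7 of the 10 genes: Id2, Id3, Smad6, Ltbp2, Tgfb1, Tgfb2 and Tgfbi. Each motif was searched on both strands, and GTCTAGAC and GGCGCC read the same on either. None of them contains another. GTCTAGAC was found in 1 of the 7 windows, that of Smad6, and in 0.213% of all 32851 promoter windows. In Smad6 it spans the annotated start, from -4 to +4. The window is printed from -250 to +10 (chr9:64022050-64022309, minus strand), with the motif in capitals.
Smad6: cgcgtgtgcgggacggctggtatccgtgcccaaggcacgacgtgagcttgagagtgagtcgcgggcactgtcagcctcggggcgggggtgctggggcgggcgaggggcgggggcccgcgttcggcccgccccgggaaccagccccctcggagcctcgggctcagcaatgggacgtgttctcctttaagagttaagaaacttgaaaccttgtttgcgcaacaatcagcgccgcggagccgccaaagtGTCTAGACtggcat
GGCGCC was found in 2 of the 7, Id2 and Tgfbi, against 11.9% of all windows, and CAGAC or its complement in 4 of the 7, Id3, Ltbp2, Tgfb2 and Tgfbi, against 49.6%. The Id2 match at -231 to -226 and both Id3 matches, at -167 to -163 and at -68 to -64, are shown in stretches of 30 bases (chr12:25096306-25096335, minus strand; chr4:136143643-136143672 and chr4:136143742-136143771, plus strand), again with the motif in capitals.
Id2: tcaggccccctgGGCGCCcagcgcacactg
Id3 far: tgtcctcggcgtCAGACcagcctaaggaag
Id3 near: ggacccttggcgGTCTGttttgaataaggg
Tgfb1, which fell, held none of the 3 motifs in its window, and Tgfb2 and Tgfbi, which were not called, held at least 1. Positions count from the RefSeq start. For Id2 and Id3 that start lies inside the gene span given above, so their printed stretches fall within the listed genes. A match in a window does not show that a Smad binds there.

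The rest of the pathway moved in both directions. Of 94 further genes listed by role, 58 were tested, of which 27 rose, 22 fell and 9 were not called, near the shares of all tested genes (42.1% higher and 43.9% lower). The balance turned with the scaling, to 25 higher and 31 lower with upper quartile scaling and 25 higher and 26 lower with the length trend removed. Their median log2 fold change was 0.01. By role, the medians ran from -0.77 for other Smad target genes to 0.69 for extracellular regulators. The counts by role below rest on 5 to 13 tested genes each. Each is to be read against the same shares of all tested genes, 42.1% higher and 43.9% lower.

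**Figure D4:**
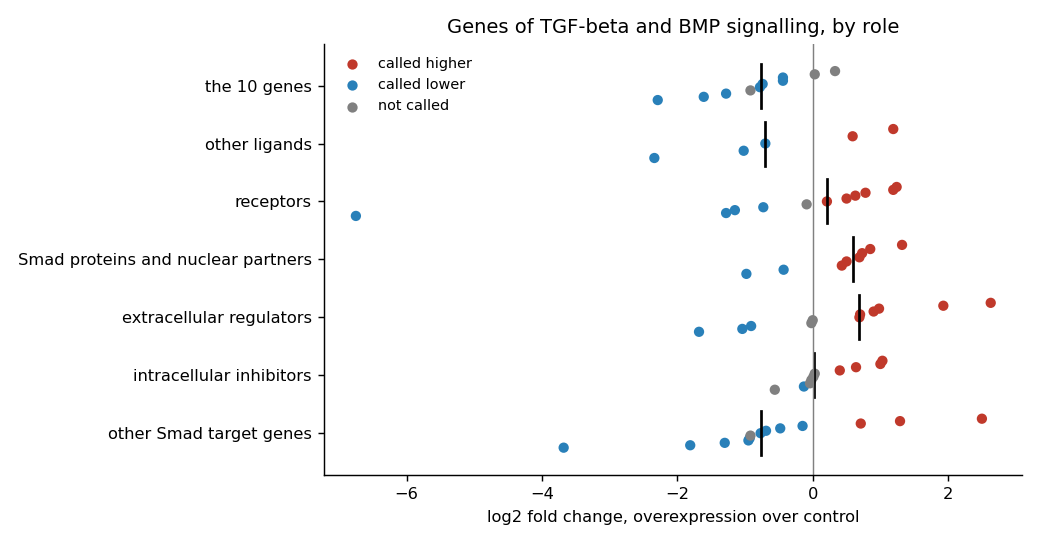
Log2 fold change, overexpression over control, of each tested gene of TGF-beta and BMP signalling, in rows by role, with called genes in red (higher) or blue (lower), genes not called in grey and the median of a row as a black bar. The bars of the 10 genes, the other ligands and the other Smad target genes lie at -0.76, -0.70 and -0.77, and the point near -6.75 is Acvrl1, which had 0 counts with overexpression, so that its place depends on the fit's prior count.

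Of 19 other ligand genes 9 had no count in any library and 5 were tested, of which 2 rose and 3 fell. Tgfb3, the remaining TGF-beta isoform, fell 5.08-fold, to 16.3 ± 1.20 CPM with overexpression, against 82.7 ± 1.19 CPM in the controls (SD, n = 3; log2 fold change -2.34, edgeR adjusted p = 4.67e-40). Bmp7 fell 1.63-fold, to 16.8 ± 0.228 CPM against 27.4 ± 1.59 CPM in the controls. Inhba, the activin A subunit, rose to 183 ± 2.26 CPM with overexpression, against 122 ± 4.86 CPM in the controls, and Gdf11, an activin-like ligand, 2.29-fold to 38.0 ± 1.40 CPM. Bmp2 was listed at 0 in all libraries and Bmp4 averaged 0 CPM with overexpression and 0.0212 CPM in the controls (1 count in all), and of the 8 Bmp ligand genes listed only Bmp7 exceeded 1 CPM in either group.

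Among 11 tested receptor genes 6 rose, 4 fell and 1 was not called. This balance depended on the processing. With the length trend removed 4 rose and 5 fell, and with upper quartile scaling 5 rose and 5 fell. Against the 1.5-fold minimum 2 rose and 4 fell. Tgfbr2, the type II receptor that binds TGF-beta, rose 2.36-fold, to 280.0 ± 6.05 CPM with overexpression, against 119 ± 7.03 CPM in the controls (SD, n = 3; log2 fold change 1.24, edgeR adjusted p = 1.38e-40). Bmpr1a, a type I BMP receptor, rose 1.55-fold to 137 ± 3.79 CPM. The co-receptor genes Tgfbr3 (betaglycan) and Eng (endoglin) fell 2.44-fold and 1.66-fold, to 19.2 ± 1.81 and 58.3 ± 2.79 CPM. Acvrl1, a type I receptor best known from endothelium, had 0 counts with overexpression and 41 in the controls. With 3 counts over the whole group as the floor, it was at least 13.1-fold lower; it was named after its values were seen. The receptor median of 0.21 was the same with Acvrl1 set at that bound.

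The Smads themselves divided. Smad3 fell 1.97-fold, to 141 ± 1.39 CPM with overexpression, against 278 ± 1.60 CPM in the controls (SD, n = 3; log2 fold change -0.98, edgeR adjusted p = 1.17e-37). Smad2, which shares its receptors, rose 1.80-fold to 74.4 ± 3.11 CPM, and the common partner Smad4 1.61-fold to 112 ± 3.66 CPM. Ep300, an acetyltransferase recruited by Smads, rose 2.50-fold (log2 fold change 1.32). In that list of 8 tested genes, Smads and nuclear partners together, 6 rose and 2 fell. Of the Smads mainly below BMPs, Smad1 fell (log2 fold change -0.43, edgeR adjusted p = 2.39e-10) and Smad5 rose (0.50, edgeR adjusted p = 5.36e-18). Both were named after their values were seen, and Smad9 was not tested.

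Of the 11 tested extracellular regulators 6 rose, 3 fell and 2 were not called. With upper quartile scaling, and also with the length trend removed, 6 rose and 5 fell. Without the filter on low counts, which brings in more genes, 9 rose and 5 fell. With any 1 control library left out 8 rose and 3 fell. Ltbp3, a latent TGF-beta binding protein, fell to 434 ± 5.75 CPM with overexpression, against 1389.8 ± 2.92 CPM in the controls (SD, n = 3; log2 fold change -1.68, edgeR adjusted p = 1.34e-57). Bmp1, a procollagen protease rather than a ligand, fell 1.88-fold to 399 ± 7.91 CPM. Itgav, the integrin subunit that takes part in freeing latent TGF-beta, rose 1.87-fold to 284 ± 2.87 CPM, and Twsg1, a BMP-binding modulator, 1.97-fold to 189.6 ± 1.66 CPM. Of the 10 tested intracellular inhibitors 4 rose, 1 fell and 5 were not called. The ubiquitin ligase genes Smurf2 and Smurf1, whose products mark Smads and receptors for degradation, rose 2.05-fold and 1.56-fold to 195 ± 4.32 and 199 ± 7.58 CPM. Strap, a receptor-associated protein that also has roles in RNA complexes, rose to 299 ± 2.77 CPM with overexpression, against 149.7 ± 4.90 CPM in the controls. Tgif1, a Smad corepressor, fell 1.09-fold to 152 ± 8.15 CPM (log2 fold change -0.13, edgeR adjusted p = 0.00106). The count of inhibitors called lower was 6 with upper quartile scaling, 4 with the length trend removed, 3 with limma, 0 against the 1.5-fold minimum, 0 without overexpression replicate 1 and 2 without control replicate 3.

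Of 13 other tested Smad target genes 9 fell, 3 rose and 1 was not called. Over all tested genes 43.9% were called lower and 42.1% higher. With the length trend removed 7 fell and 3 rose, and with upper quartile scaling 10 fell and 3 rose. Against the 1.5-fold minimum 7 fell and 3 rose. Junb, an AP-1 subunit, fell 2.46-fold, to 238 ± 7.43 CPM with overexpression, against 587 ± 16.6 CPM in the controls (SD, n = 3; log2 fold change -1.30, edgeR adjusted p = 2.54e-47). Rhob, a small GTPase, fell 1.94-fold to 100.3 ± 4.91 CPM, and Fn1, fibronectin, 1.61-fold to 2524 ± 30.5 CPM. Ccn2, which is a target of TGF-beta and of the Hippo pathway, rose 5.65-fold to 64.9 ± 3.03 CPM, against 11.5 ± 0.984 CPM in the controls (log2 fold change 2.50, edgeR adjusted p = 2.79e-38). Id4, the remaining Id gene, named after its values were seen, had 0.937, 1.98 and 2.21 CPM with overexpression and 5.78, 6.46 and 6.03 CPM in the controls (log2 fold change -1.81, edgeR adjusted p = 1.17e-10).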

How the data were processed

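Messenger RNA of 3 overexpression and 3 control libraries was analysed. The authors deposited raw read counts per gene and FPKM values, per the file headers; FPKM is the count per kilobase of listed gene length and library total. The authors' deposited table also holds log2 fold changes and adjusted p-values. The submitters' processing notes list HISAT2, HTSeq and DESeq, with neither version nor role; strand and multi-mapping settings are not stated. They name the build mm9, but 21617 of 21817 genes matched by identifier, the 10 described among them, have the start and end of GENCODE M21, so coordinates are those of GRCm38.

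Counts were tested with edgeR 4.0.16 in R 4.3.3 (filterByExpr with a minimum count of 10, TMM, robust quasi-likelihood F test, Benjamini-Hochberg adjusted p under 0.05) in a model with the group as its only term. SE is the log2 fold change divided by the square root of F, and intervals are at 95%. The biological coefficient of variation was 2.93%, and 3 counts in a library equal 0.188 to 0.216 CPM. Depth limits Tgfbi most, and floors cover counting error only. No batch is given in the labels, and one aligned with the groups and overexpression cannot be told apart. Within each group the libraries differed by more than counting noise (chi-square per degree of freedom 1.86 to 2.63).

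The genes, lists and tests were chosen with earlier results of these data known. Named further genes are, per list, up to 4 with the smallest p among those called, whose groups do not overlap and of which one averages 1 CPM or more. Alternatives used DESeq2 1.42.0, limma 3.58.1 on log2(FPKM + 1) and log2(FPKM + 0.1), other scalings, no filter, a 1.5-fold minimum, an offset from a lowess trend (span 0.3) of log2 fold change on gene length, a replicate block and leaving out each library. The 3' UTR search took the longest annotated 3' UTR of each gene.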

Additional observations from a re-analysis of the deposited data

How the results depend on the processing

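Across 15 alternatives, Id1, Id2, Smad6, Pmepa1 and Ltbp2 were called lower in each, with log2 fold changes from -1.51 to -0.60, -2.52 to -1.88, -1.83 to -1.11, -1.01 to -0.74 and -1.10 to -0.71. Id3 and Tgfb1 lost the call against the 1.5-fold minimum. Id3 turned to 0.10 with the length trend removed. Smad7 turned to -0.20 with upper quartile scaling and to -0.05 and -0.06 with limma at pseudocounts of 1 and 0.1; of these, it was called with upper quartile scaling. Tgfbi was called lower with upper quartile scaling (-1.15), with limma at pseudocounts of 1 (-0.17) and 0.1 (-0.75), and without overexpression replicate 1; the cause was not tested. Over all 15, adjusted p ranged from 4.18e-17 to 1.00 for Id3, 0.00111 to 1.00 for Smad7, 0.0359 to 1.00 for Tgfb2 and 0.00872 to 0.318 for Tgfbi. The genes called lower numbered 5 to 9 of the 10, and those called higher 0 in each alternative but 1, Tgfb2, without overexpression replicate 1 (range 0 to 1 over the libraries left out).

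Against the 1.5-fold minimum, 5947 genes were called in place of 10159, and 17 further pathway genes rose in place of 27, as a stricter threshold must give; among them 1 other ligand and 2 receptors rose and 1 Smad or partner fell. Upper quartile scaling moved the split of all calls to 3961 higher and 6288 lower, against 4975 and 5184, and the median of all genes from -0.03 to -0.26.

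Same-numbered libraries did not deviate together (correlations from -0.0309 to -0.00307, and 0 of 6 libraries correlated best with its own number). No pairing by number was seen, but a small shared effect would not show, and the labels do not say whether the numbers pair. With the replicate block 10116 genes were called, 7 of the 10 genes lower and 0 higher, and 27 further pathway genes higher and 22 lower. Depth limits Tgfbi, Tgfb2 and Smad6, whose counts summed to 24, 236 and 156 with overexpression and 48, 195 and 496 in the controls.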
